A study of Mus musculus with 6 samples.

Results

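Peroxisomal fatty acid oxidation was followed in mouse liver through 9 genes: Ehhadh, Hsd17b4, Acaa1a, Acaa1b, Scp2, Decr2, Crot, Nudt7 and Pex11a. They were taken by gene symbol from the expression table, as enzymes of peroxisomal fatty acid oxidation and coenzyme A breakdown plus 1 gene of peroxisome proliferation. They make up 9 of the 17738 genes with values. The livers came from ICR mice, an outbred stock. 1 group of 3 liver libraries, extract 1 to 3, came from mice that received by gavage for 1 week a daily 1 g/kg of the ethyl acetate fraction of a hydrosoluble Chebulae Fructus extract, made from dried fruits of the tree Terminalia chebula. The other group of 3, water 1 to 3, came from mice given water at 10 ml/kg for 1 week, also by gavage. The labels give no age, sex, cage or time of sampling and do not say whether the libraries of a group come from different animals, so the spread behind each p-value may be technical.

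Peroxisomes shorten very long, branched and some dicarboxylic fatty acids by a spiral of oxidation, hydration, a second oxidation and thiolytic cleavage, and pass the shortened chains on to mitochondria. The first oxidation, by acyl-CoA oxidases, yields hydrogen peroxide. A multifunctional protein carries out the middle steps and a thiolase the last one. In rodent liver several of these genes are classic targets of the nuclear receptor PPARα, which fatty acids and fibrate drugs activate and which makes peroxisomes proliferate.

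Values are FPKM, sequenced fragments scaled both to transcript length and to library size, so levels of different genes can be set side by side. Total read numbers are not known, and with them the counting error of a single value. Of 7 hepatocyte markers looked for, 6 matched a symbol of the table (Alb, Apoa1, Ttr, Fgb, Cps1 and Hnf4a) and were present in all 6 libraries, the lowest value of any of them being 157 FPKM. On the first principal component of 10282 tested genes, extract 3 lay at -2.06, nearer to water 1 at 3.81 than to extract 1 at -14.2 or extract 2 at -26.8, and water 1 stood apart on the second component at -29.6, against 2.74 to 11.9 elsewhere. Fold changes are therefore also given without extract 3 and without water 1. The 10 Kupffer cell markers (liver macrophages) summed to 210 to 322 FPKM in extract libraries and to 130 to 154 FPKM in water libraries, and the 6 hepatocyte markers to 62610 to 75280 FPKM in extract and 79210 to 84910 FPKM in water libraries. Without Alb the hepatocyte sums overlapped, at 16158 to 17235 FPKM in extract and 13678 to 19319 FPKM in water libraries, and of the 6 markers 3 had a positive and 3 a negative fold change. Sums of the other marker lists overlapped between groups. Red cell sums were 529 to 810 FPKM in extract and 791 to 2773 FPKM in water libraries. Cholangiocyte sums were 18.4 to 31.9 FPKM in extract and 12.3 to 19.4 FPKM in water libraries. All 7 markers of sinusoidal endothelium had a negative fold change, and of stellate cells 4 had a positive and 3 a negative one. The part of cell composition in the values below was not tested.

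None of the 9 genes passed limma's test at a Benjamini-Hochberg adjusted p below 0.05 over all 10282 genes, a threshold that 0.0486% of tested genes passed. At an unadjusted limma p below 0.05 there were 4 of the 9, against 10.3% of tested genes. Of these, Ehhadh, Acaa1b and Pex11a were lower in extract livers (3.82% of tested genes were) and Nudt7 was higher (6.5%). In 5 genes the extract and water libraries did not overlap, against 15.9% of tested genes: Ehhadh, Acaa1b, Acaa1a and Pex11a lay lower in every extract library (5.88% of tested genes did) and Nudt7 higher in every one (10%). 6 of the 9 fold changes were negative, with a median log2 of -0.20, while 42.5% of all tested genes had a negative one and their median was 0.03. All 9 genes were above the filter on low values in every library, so none was tested only because of its level in 1 group.

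**Figure D1:**
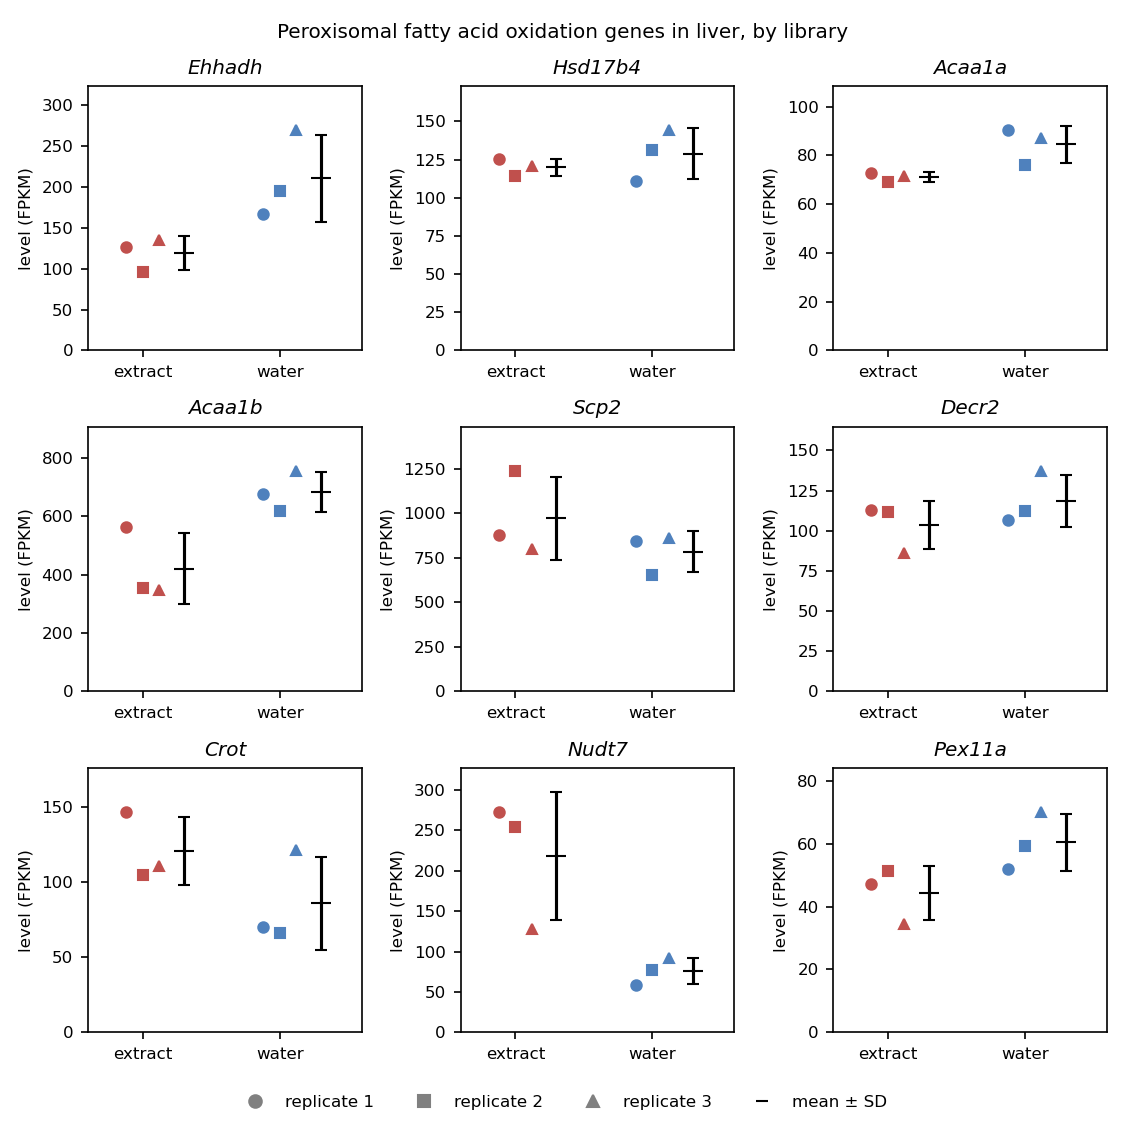
Level of each of the 9 genes in FPKM (vertical axes, from 0) in the 3 extract and 3 water libraries, with 1 point per library and the mean ± SD beside the points. Ehhadh, Acaa1a, Acaa1b and Pex11a have all extract points below all water points, Nudt7 has them above, and the other 4 genes overlap.

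**Figure D2:**
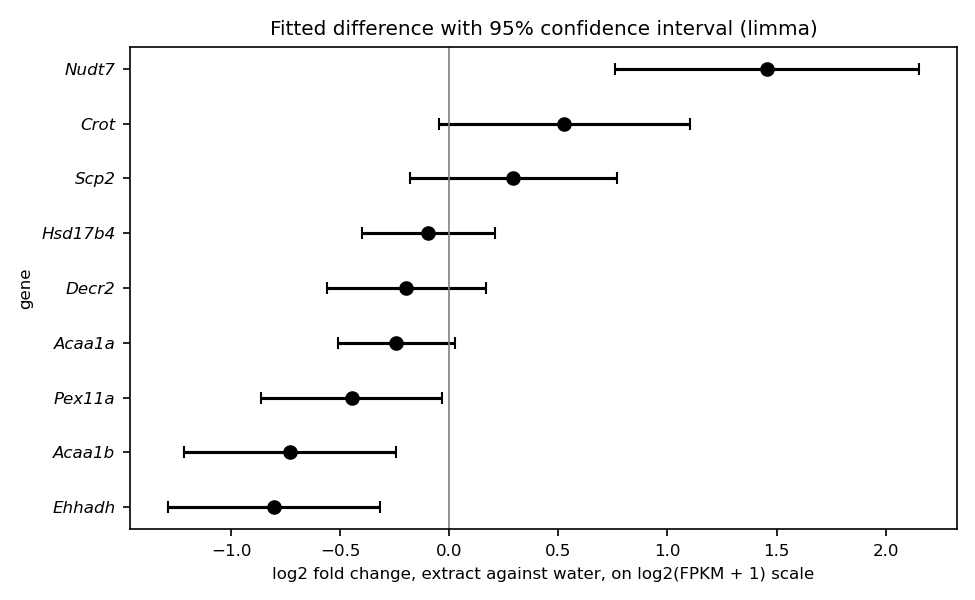
Fitted log2 fold change of each gene, extract against water, on the log2(FPKM + 1) scale (horizontal axis), with its 95% confidence interval from limma. The intervals of Nudt7, Pex11a, Acaa1b and Ehhadh leave out 0 before correction for multiple tests, with Nudt7 at 1.46 and Ehhadh at -0.80.

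The start regions of the genes at both ends of that range, Ehhadh, Acaa1b and Nudt7, are shown with that of Acaa1a, the sister gene of Acaa1b, to set their promoter letters side by side. Each is the 250 bases before the RefSeq start site on GRCm38.p6, 5′ to 3′ on the gene's strand, and capitals mark every match, on either strand, to the nuclear receptor half-site AGGTCA, the TATA box TATAAA, the CCAAT box CCAAT or the GC box GGGCGG.
Ehhadh, chr16:21787835-21788084, minus strand: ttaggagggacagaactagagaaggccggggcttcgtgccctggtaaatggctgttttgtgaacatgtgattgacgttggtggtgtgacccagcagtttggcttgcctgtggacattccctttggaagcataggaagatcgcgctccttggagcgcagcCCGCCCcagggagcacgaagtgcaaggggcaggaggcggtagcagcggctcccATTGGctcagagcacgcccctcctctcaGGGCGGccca
Acaa1b, chr9:119157094-119157343, minus strand: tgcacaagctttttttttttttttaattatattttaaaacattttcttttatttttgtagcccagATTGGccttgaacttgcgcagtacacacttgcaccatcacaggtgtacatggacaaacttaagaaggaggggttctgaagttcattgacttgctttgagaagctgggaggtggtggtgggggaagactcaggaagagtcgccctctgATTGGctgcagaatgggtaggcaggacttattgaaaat
Acaa1a, chr9:119341044-119341293, plus strand: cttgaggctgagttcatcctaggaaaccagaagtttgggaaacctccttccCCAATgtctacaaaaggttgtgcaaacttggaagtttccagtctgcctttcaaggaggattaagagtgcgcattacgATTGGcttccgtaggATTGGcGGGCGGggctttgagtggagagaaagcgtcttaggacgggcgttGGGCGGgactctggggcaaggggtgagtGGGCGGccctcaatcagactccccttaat
Nudt7, chr8:114133324-114133573, plus strand: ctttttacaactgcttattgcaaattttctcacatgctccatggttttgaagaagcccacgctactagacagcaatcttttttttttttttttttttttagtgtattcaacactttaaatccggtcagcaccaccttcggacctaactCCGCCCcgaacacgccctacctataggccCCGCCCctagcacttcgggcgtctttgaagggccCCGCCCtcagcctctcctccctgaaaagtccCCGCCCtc
Ehhadh held 1 CCAAT box and 2 GC boxes, Acaa1b 2 CCAAT boxes and no GC box, Acaa1a 3 of each, and Nudt7 4 GC boxes and no CCAAT box. Among 32851 mouse promoters of this length, 33.8% held a CCAAT box and 32.7% a GC box. None of these 4 held AGGTCA, which 14.0% of promoters did, or TATAAA, which 12.4% did. A repeat of the half-site with 1 base between, AGGNCANAGGNCA, which can contain AGGTCA, was in none of the 8 genes with an entry and in 0.338% of promoters. Scp2 alone of the 8 held AGGTCA, at position -109 from the only start searched for it. That start lies inside the gene, whose 5′ end is at chr4:108144971, and no other Scp2 start was searched. The start searched for Decr2 also lies inside its gene. So does that for Acaa1a, whose window shown above lies within the gene, which begins at chr9:119341028. No other Acaa1a start was searched, so its boxes and its comparison with Acaa1b hold for that start only. For Nudt7 another start was searched, whose overlapping window at chr8:114133368-114133617 is not shown. That window also held 4 GC boxes and no CCAAT box, AGGTCA or TATAAA. The Acaa1b promoter was poorer in G and C than that of Acaa1a, at 41.6% against 53.6%, and had 2 CpG pairs against 10. Aligned end to end with gaps, the thiolase promoters had 137 identical bases, 79 mismatches and 68 gap positions. No unrelated promoters were aligned, so whether this exceeds the likeness of any such pair was not tested. A match is a run of letters, not a shown binding site, and these windows do not cover more distant elements.

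The multifunctional proteins, which hydrate the chain and oxidise it a second time, come in an L-type and a D-type. Ehhadh (gene ID 74147, chr16:21761285-21787834 on GRCm38) encodes the L-type, which acts on straight and dicarboxylic chains and is strongly induced by PPARα agonists in mice. It had 126, 95.6 and 135 FPKM in extract 1 to 3, against 167, 195 and 270 FPKM in water 1 to 3. The highest extract library lay below the lowest water library. The means were 119 ± 20.8 FPKM in extract and 210 ± 53.1 FPKM in water livers (SD, n = 3 each), and the log2 fold change was -0.80 (standard error 0.21, limma adjusted p = 0.239). It was -0.90 without extract 3 and -0.96 without water 1. In bulk tissue, fewer cells of a type and less RNA per cell cannot be told apart.

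Hsd17b4 (gene ID 15488) encodes the D-type protein, needed also for branched chains and bile acid intermediates. It had 125, 114 and 121 FPKM in extract libraries, against 111, 131 and 144 FPKM in water libraries. The groups overlapped, and the extract values lay inside the water range. The log2 fold change was -0.09 with a 95% interval of -0.40 to 0.21 (limma adjusted p = 0.888), an interval that leaves room for a modest difference in either direction. The fold change was -0.10 without extract 3, -0.20 without water 1, -0.06 without extract 2 and -0.01 without water 3. Within each library, the ratio of Ehhadh to Hsd17b4, which does not depend on how libraries are scaled, was 1.01, 0.837 and 1.12 in extract libraries and 1.5, 1.49 and 1.87 in water libraries. The ratios did not overlap, and their two-sided exact permutation p was 0.1, the smallest that 3 against 3 libraries allow (0.133 adjusted over the 4 ratios examined).

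The thiolases release acetyl-CoA at the end of each turn. Mice have Acaa1a (gene ID 113868, chr9:119341028-119350296) and Acaa1b (gene ID 235674, chr9:119148043-119157093), both on chromosome 9. Of all stretches of 100 bases in the longest Acaa1b transcript of GENCODE M21, 22.6% were also found letter for letter in Acaa1a transcripts, and 9.8% the other way round. With stretches of 50 bases it was 35.5% and 15.6%, so the division of reads between both genes is uncertain there. Acaa1b had 563, 353 and 347 FPKM in extract libraries, against 675, 618 and 755 FPKM in water libraries. Every extract library lay below every water library, with extract 1 nearest to them. The means were 421 ± 123 FPKM in extract and 683 ± 68.9 FPKM in water livers (log2 fold change -0.73, standard error 0.21, limma adjusted p = 0.274), and the fold change was -0.61 without extract 3 and -0.73 without water 1.

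Acaa1a was much the lower of the pair. It had 72.7, 68.9 and 71.5 FPKM in extract libraries, against 90.3, 75.8 and 87.2 FPKM in water libraries. The groups did not overlap, but water 2 lay close to the extract libraries. The log2 fold change was -0.24 with a 95% interval of -0.51 to 0.02 (limma adjusted p = 0.528), -0.25 without extract 3 and -0.19 without water 1. The ratio of Acaa1b to Acaa1a was 7.74, 5.12 and 4.85 in extract libraries and 7.48, 8.15 and 8.66 in water libraries. Extract 1 lay inside the water range, and the two-sided exact permutation p was 0.2, also after adjustment over the 4 ratios. Exons of Acaa1a share 6.57% of their bases with Myd88 on the opposite strand, and those of Acaa1b 11.4% with Dlec1, which averaged 7.76 and 0.442 FPKM over the 6 libraries. Whether counting used the strand is not given in the sources used here.

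Scp2 encodes both a thiolase for branched chains and sterol carrier protein 2, from separate promoters, and one gene value cannot separate them. It was the highest of the 9 genes. It had 878, 1238 and 802 FPKM in extract libraries, against 845, 653 and 859 FPKM in water libraries. Extract 2 stood above the rest and water 2 below, and the other 4 libraries lay together. The log2 fold change was 0.29 with a 95% interval of -0.18 to 0.77 (limma adjusted p = 0.707), 0.42 without extract 3 and 0.35 without water 1. It was 0.11 without extract 2 and 0.16 without water 2.

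2 enzymes handle chains at the edges of the spiral. Decr2, a 2,4-dienoyl-CoA reductase that prepares polyunsaturated chains, had 113, 112 and 86.3 FPKM in extract libraries, against 107, 112 and 137 FPKM in water libraries. The groups overlapped, with only extract 3 below and water 3 above the range of 107 to 113 FPKM that the other 4 libraries spanned. Its log2 fold change was -0.20 (95% interval -0.56 to 0.17, limma adjusted p = 0.769), and -0.07 without extract 3, -0.27 without water 1 and -0.09 without water 3. Crot, the octanoyltransferase that moves shortened chains onto carnitine for export, had 147, 105 and 111 FPKM in extract libraries, against 70.0, 66.2 and 121 FPKM in water libraries. Water 3 lay among the extract libraries, while water 1 and water 2 lay below all of them. Its log2 fold change was 0.53 (95% interval -0.05 to 1.10, limma adjusted p = 0.526), and 0.58 without extract 3, 0.41 without water 1 and 0.80 without water 3.

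Nudt7 (gene ID 67528, chr8:114133574-114154731) encodes a peroxisomal nudix hydrolase that splits coenzyme A and its acyl esters, and so counters the pool the spiral uses. It had 272, 254 and 128 FPKM in extract libraries, against 58.7, 77.1 and 91.8 FPKM in water libraries. All extract libraries lay above all water libraries, with extract 3 nearer to water 3 than to the other extract libraries. The means were 218 ± 78.6 FPKM in extract and 75.9 ± 16.6 FPKM in water livers, 2.87-fold apart, and the log2 fold change was 1.46 (standard error 0.30, limma adjusted p = 0.170). Without extract 3 it was 1.80 and passed the threshold (limma adjusted p = 0.0271). Without water 1 it was 1.29 (limma adjusted p = 0.184).

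Nudt19 encodes another peroxisomal coenzyme A diphosphatase, and its values did not follow those of Nudt7. It had 23.5, 16.6 and 23.1 FPKM in extract libraries and 26.9, 31.8 and 21.2 FPKM in water libraries (log2 fold change -0.32, limma adjusted p = 0.626). The ratio of Nudt7 to Nudt19 was 11.6, 15.3 and 5.54 in extract libraries and 2.19, 2.43 and 4.34 in water libraries. The ratio of Nudt7 to Ehhadh was 2.16, 2.65 and 0.947 in extract libraries and 0.352, 0.396 and 0.341 in water libraries. Neither ratio overlapped between groups. For Nudt7 to Nudt19 the exact permutation p was 0.1 (0.133 adjusted). For Nudt7 to Ehhadh the outcome was fixed beforehand. Every extract library lay above every water library for Nudt7 and below for Ehhadh, so the ratio had to separate and its p is no test. The adjustment over the 4 ratios counted it, which lowered the 0.133 given for other ratios. All ratios were chosen with earlier results of these data known. Both genes of the last ratio were known to differ in opposite directions when it was chosen.

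**Figure D3:**
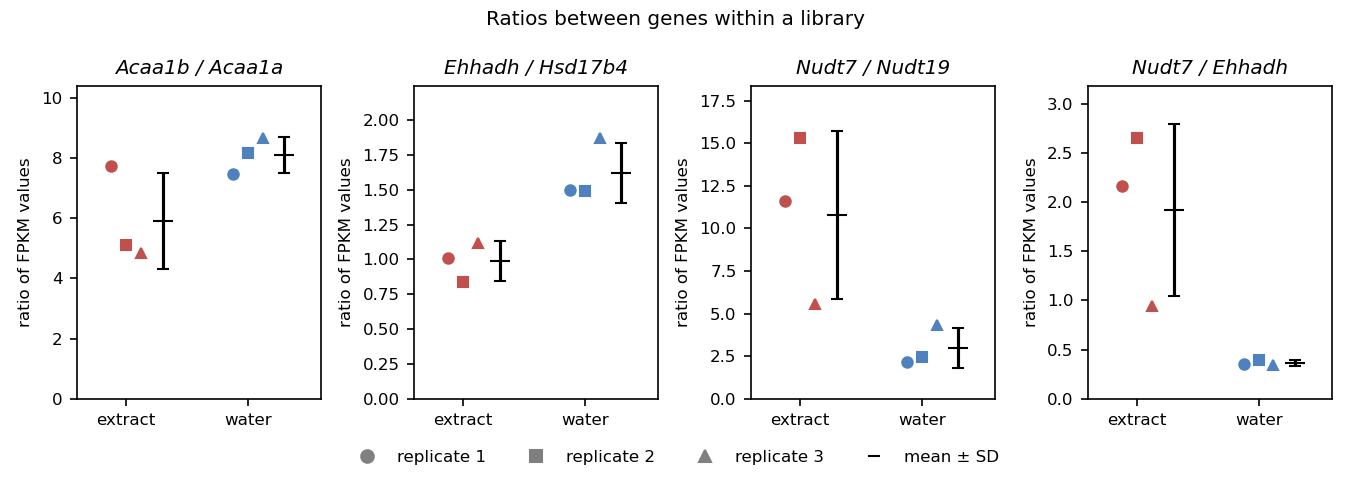
Ratio of FPKM values of 2 genes within each library (vertical axes, from 0), for 3 extract and 3 water libraries, with mean ± SD. The Ehhadh to Hsd17b4 ratio is 0.837 to 1.12 in extract and 1.49 to 1.87 in water libraries, both ratios with Nudt7 are higher in every extract library, and the thiolase ratio overlaps through extract 1.

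Pex11a (gene ID 18631, chr7:79735957-79743131) encodes a membrane protein that elongates peroxisomes before they divide and is induced by PPARα agonists. It had 47.2, 51.2 and 34.5 FPKM in extract libraries, against 52.0, 59.2 and 70.0 FPKM in water libraries. The groups did not overlap, but extract 2 and water 1 lay less than 1 FPKM apart. The log2 fold change was -0.45 (standard error 0.18, limma adjusted p = 0.456), and was -0.28 without extract 3 and -0.55 without water 1. The related gene Pex11g, at a log2 fold change of 0.07, overlapped between groups.

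The order of the genes by level differed between groups, most of all for Nudt7. In extract livers Scp2 was highest, then Acaa1b, then Nudt7, which ranked 3 of 9, and Ehhadh ranked 6. In water livers Scp2 and Acaa1b also led, Ehhadh ranked 3 and Nudt7 ranked 8. Crot ranked 4 in extract livers and 6 in water livers. In extract livers each gene from Nudt7 to Ehhadh overlapped the next in the order, while Decr2, Acaa1a and Pex11a did not overlap each other. In water livers Scp2 overlapped Acaa1b, and from Hsd17b4 down each gene overlapped the next. The 9 genes together made up 0.342% to 0.424% of the FPKM sum in extract libraries and 0.373% to 0.490% in water libraries, so their total overlapped.

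The genes did not vary as a block from library to library. Water 3 was the highest library for 5 of the 9 genes and the lowest for none. Extract 3 was the lowest for 3 genes (Acaa1b, Decr2 and Pex11a) and the highest for none. Across the 6 libraries, with each gene centred on its own mean, Decr2 and Pex11a were the closest pair, at a root mean square difference of 0.141 on the log2 scale. Ehhadh and Acaa1b, with the most negative fold changes of the 9, were 0.282 apart.

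**Figure D4:**
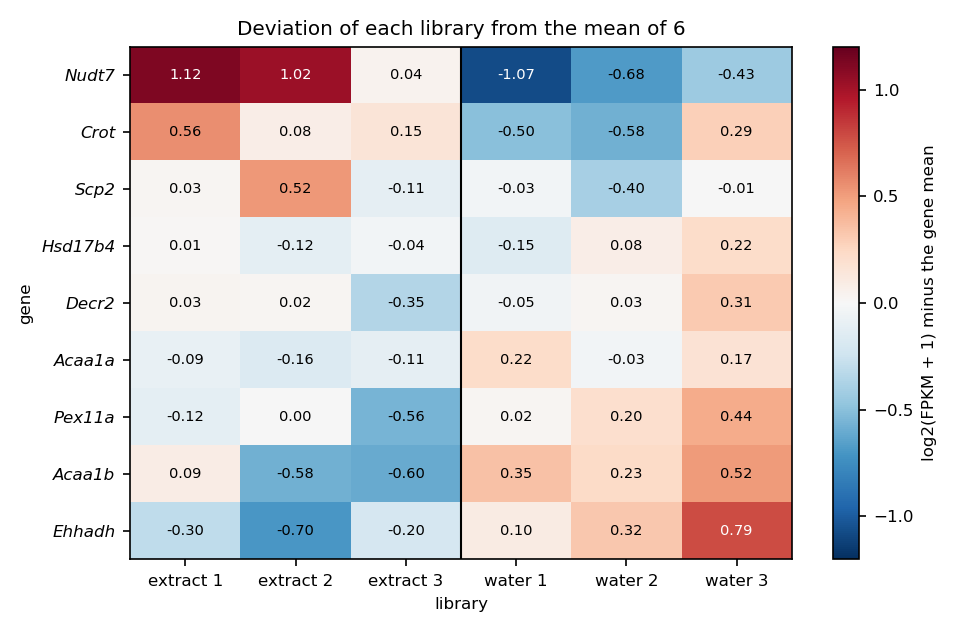
Deviation of log2(FPKM + 1) from the gene's mean over 6 libraries (colour and printed value) for each gene (rows, by fold change) and library (columns, extract left of the line). Nudt7 is at 1.12 in extract 1 and -1.07 in water 1, Ehhadh at -0.70 in extract 2 and 0.79 in water 3, and water 3 is positive in every row but those of Nudt7 and Scp2.

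Other genes were also ranked by likeness to each of the 9, by the same root mean square difference, among 10273 tested genes. The nearest always exist among so many genes, so these are descriptions over 6 libraries. Nudt7 was nearest to Usp18, which removes ISG15 from proteins in the interferon response, at 0.104, then to Irgm2, an interferon-induced GTPase, at 0.154, and to Gm12250 at 0.183. Usp18 had 17.4, 20.5 and 9.06 FPKM in extract libraries and 3.34, 4.53 and 5.99 FPKM in water libraries. Its extract 3 lay nearer to water 3 than to the other extract libraries, a likeness to Nudt7 that the ranking selects for. Ehhadh was nearest to Tbx3, a transcription factor, at 0.109, and to Pdk1, a kinase that restrains pyruvate dehydrogenase, at 0.121. Acaa1b was nearest to 1700029I15Rik at 0.0982 and Msh5 at 0.0993, both at or below 3.18 FPKM. Hsd17b4 was nearest to Zfand5, at 0.0227.

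The rest of the peroxisome was described with 66 further genes, of which 62 were tested. By limma 0 of them were called at the adjusted threshold. Before adjustment, 2 were higher and 6 lower in extract livers at p below 0.05 (6.5% and 3.82% of all tested genes were), and without overlap 1 was higher and 6 lower (10% and 5.88% of all). The median log2 fold change was -0.02, against 0.03 for all tested genes. The lower genes included Crat, which transfers short acyl groups to carnitine, with 17.8, 20.6 and 19.0 FPKM in extract libraries and 32.5, 37.9 and 31.5 FPKM in water libraries (log2 fold change -0.79, limma adjusted p = 0.0882). Ech1, an isomerase of unsaturated chains, had 231, 222 and 236 FPKM in extract libraries and 265, 262 and 278 FPKM in water libraries (log2 fold change -0.22, limma adjusted p = 0.546). The one higher gene without overlap was Lonp2, the peroxisomal Lon protease, with 111, 92.8 and 89.0 FPKM in extract libraries and 61.9, 64.1 and 62.9 FPKM in water libraries (log2 fold change 0.62, limma adjusted p = 0.155). Eci3, Acot8, Pex16 and Mpv17l were also lower in every extract library, with log2 fold changes between -0.78 and -0.26. Eci3 reached 1 FPKM in every water library but in only 1 extract library, so it was tested because of its level in water livers.

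By step of the pathway, none of the 3 acyl-CoA oxidases, which open the spiral, was without overlap, against 15.9% of tested genes. Of 18 genes of peroxisome biogenesis and division, 8 had a positive and 10 a negative fold change. At an adjusted or an unadjusted limma p below 0.05, 0 of the 18 passed, against 0.0486% and 10.3% of tested genes. Pex16 of the 18 was without overlap, lower in extract livers, as were 5.88% of tested genes. Cat, the catalase that removes the peroxide, had 1378, 1290 and 1368 FPKM in extract libraries and 1008, 1162 and 1298 FPKM in water libraries, which overlapped (log2 fold change 0.23, limma adjusted p = 0.675).

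Among 21 PPARα target genes outside the peroxisome, 19 were on the negative side (median log2 fold change -0.27), as were 42.5% of all tested genes, and 9 were lower in every extract library, as were 5.88% of all. Of these 9, Pdk4 reached 1 FPKM in every water library but not in every extract library, so it was tested because of its level in water livers. Fgf21, among the 19 but not the 9, also reached 1 FPKM in every water library but not in every extract library. The list was chosen with earlier results of these data known. Some of its genes, such as those of the Acot family, are similar copies and may not be separate evidence. 1 of the 21 passed limma over all genes. That was Cyp4a10, a microsomal fatty acid hydroxylase, with 334, 272 and 266 FPKM in extract libraries and 707, 731 and 870 FPKM in water libraries (log2 fold change -1.40, limma adjusted p = 0.0492). This call was lost when any library but extract 3 was left out (limma adjusted p between 0.0737 and 0.221), and with a pseudocount of 0.1, no filter, median centring, quantile normalization or a replicate block (0.0518 to 0.125), while the log2 fold change stayed between -1.51 and -1.31. Cyp4a10 has close copies beside it, so its level is uncertain. Acot1, Cyp4a14 and Acot2, which also lay lower in every extract library, had log2 fold changes of -1.58, -0.99 and -1.05 (limma adjusted p between 0.0792 and 0.179). Ppara itself had 41.4, 36.8 and 40.6 FPKM in extract libraries and 39.4, 61.0 and 68.7 FPKM in water libraries. Water 1 lay among the extract libraries (log2 fold change -0.46, limma adjusted p = 0.491). Of 6 genes for PPARα and its partners, Ncoa1, a coactivator, was without overlap, at a log2 fold change of 0.19. Without overlap, 10% of tested genes were higher in extract livers.

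**Figure D5:**
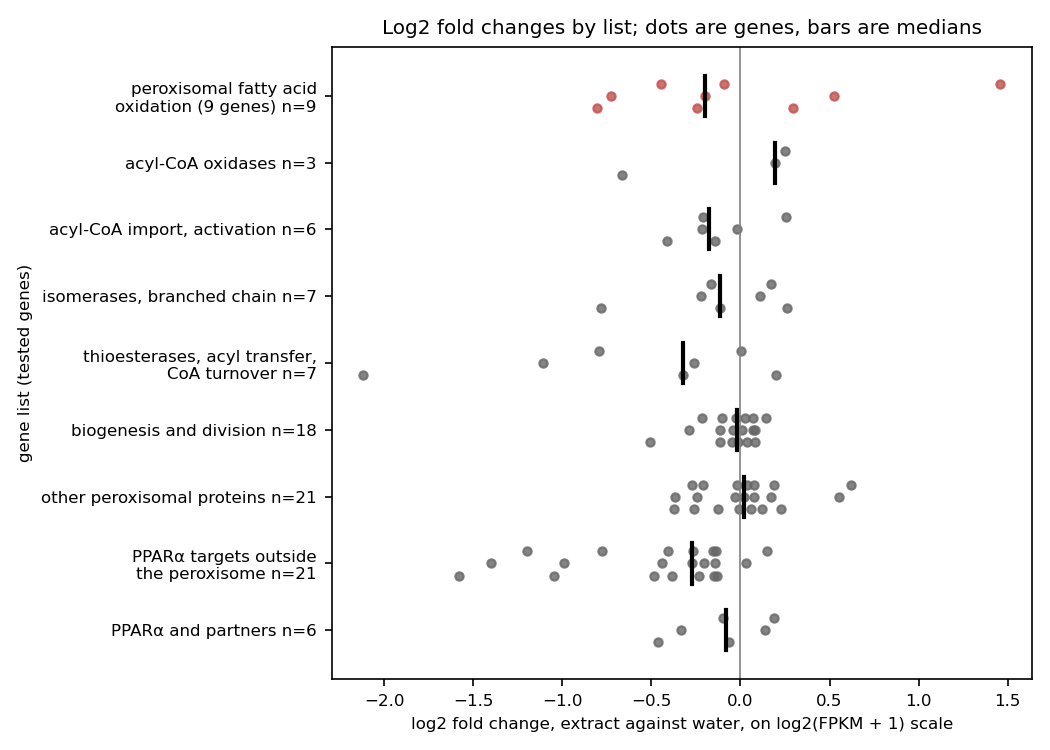
Log2 fold change of every tested gene, extract against water (horizontal axis, log2(FPKM + 1) scale), by list, with 1 dot per gene and a bar at each list's median. The 9 genes spread from -0.80 to 1.46, the 18 biogenesis and division genes stay between -0.51 and 0.14, and 19 of the 21 PPARα targets outside the peroxisome lie below 0.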

How the data were processed

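Poly(A)-selected liver RNA was sequenced in 6 libraries. Per the submitters' processing notes, the tools listed are HISAT2 2.0.4, RSEM 1.2.12, Bowtie2 2.2.5 and DESeq2 1.4.5, with GRCm38 as the build and no roles given. The deposited table gives 1 value per gene and library under headers that name no unit. They are treated here as FPKM computed by the authors: their sums ranged from 517984 to 583245, while sums weighted by the longest GENCODE M21 transcript were nearly equal, at 118.1% to 120.8% of the total that FPKM would give. Such estimates divide reads among similar genes.

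Of 22899 rows, 17738 held values. limma 3.58.1 (R 4.3.3), with a trended prior variance, was fitted to log2(FPKM + 1) for the 10282 genes that reached 1 FPKM in 3 or more libraries, with Benjamini-Hochberg adjustment over all of them. Fold changes on this scale understate those of low genes. Ratios were compared by exact permutation over 20 assignments. The fit was tested on simulated data. Positions and promoters come from RefSeq, the latter for 8 of the 9 genes. Members, lists and ratios were chosen with earlier results of these data known. All 9 members are described. From each other list the text names called genes and up to 4 per direction without overlap, and for likeness up to 3 nearest genes. Cat, Ppara and Pex11g fall outside that rule and were named after their values were seen. Some genes of the lists are not reported here. Alternatives covered the pseudocount, filters, scaling, prior variance, library weights, a replicate block and leaving out each library.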

Additional observations from a re-analysis of the deposited data

How the results depend on the processing

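All 9 genes kept the sign of their log2 fold change under the 17 alternatives run. Of the 9, 1 (Nudt7) passed limma with library weights (log2 fold change 1.55, adjusted p = 0.0391), as without extract 3. Leaving out 1 library gave 0 to 1 passing. Over all alternatives, limma adjusted p ranged from 0.0271 to 0.446 for Nudt7, 0.0718 to 0.561 for Ehhadh and 0.226 to 0.639 for Acaa1b. The 5 calls over all genes were 2 with a pseudocount of 0.1 or quantile normalization, 133 with library weights, and 0 with no filter, median centring or a replicate block (1566, 1061 and 922 at limma's unadjusted p below 0.05). Leaving out 1 library gave 0 to 48: 48 without extract 3, 1 without water 3 and 0 without any other. With median centring, 493 genes were higher and 568 lower in extract livers at unadjusted p below 0.05, against 668 higher and 393 lower as deposited. Of the other peroxisomal genes, 2 (Crat and Lonp2) passed with library weights. Of the PPARα targets outside the peroxisome, 4 passed with library weights, 0 with a pseudocount of 0.1, no filter, median centring, quantile normalization or a replicate block, and 0 to 1 with 1 library left out. All 4 ratios kept their direction.

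Replicate numbers appear in both groups, but the labels do not say that they pair libraries. Deviations of same-numbered libraries correlated at -0.0171, -0.177 and 0.117 over genes, and those of other-numbered libraries at -0.157 to 0.187. Deviations from a mean of 3 libraries cancel within a group, so these values are linked. They cannot decide whether same-numbered libraries are paired. With a replicate block 0 members and 0 genes in all passed limma. Depth is unknown, so counting error limits the lower genes to an unknown degree.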

Other observations

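The following peroxisomal genes, whose groups overlapped, were picked after their values were seen. Acot3, a thioesterase that frees long chains from coenzyme A inside peroxisomes, had 13.5, 4.16 and 28.5 FPKM in extract libraries and 28.2, 75.5 and 80.0 FPKM in water libraries (log2 fold change -2.12, limma adjusted p = 0.297). Acot4, which acts on dicarboxylic chains such as succinyl-CoA, had 12.6, 8.93 and 17.6 FPKM in extract libraries and 16.8, 31.6 and 42.6 FPKM in water libraries (log2 fold change -1.11, limma adjusted p = 0.319). In both, water 1 lay just below extract 3. The Acot genes are similar copies, so the division of reads among them is uncertain. Abcd3, a transporter of acyl-CoA into peroxisomes, had 116, 97.1 and 84.4 FPKM in extract libraries and 78.5, 135 and 141 FPKM in water libraries, with water 1 the lowest of all 6 (log2 fold change -0.22, limma adjusted p = 0.846). Hao1, a glycolate oxidase, had 91.6, 103 and 62.9 FPKM in extract libraries and 52.6, 53.5 and 65.9 FPKM in water libraries, with extract 3 inside the water range (log2 fold change 0.55, limma adjusted p = 0.387).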
